A study of Mus musculus with 12 samples.

Results

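Keratins and keratin-associated proteins, the structural proteins of epidermis and hair, were described in tissues of Sirt6 knockout mice. Every gene whose symbol on the array platform is Krt followed by a digit or begins with Krtap was taken, which gave 53 of 14654 named genes, read by 66 probes. They comprised 26 keratin genes and 27 keratin-associated protein genes. The study hybridised 12 two-colour arrays, each with RNA of 1 Sirt6 knockout tissue in Cy5 and wild type RNA of the same tissue and age in Cy3. There were 6 groups of 2 arrays, namely skin, liver, spleen and thymus at 29 days of age and liver and spleen at 21 days. For the 21-day groups the control came from 3 pooled wild type littermates. The sources used here do not give the make-up of the 29-day control, the knockout allele, the strain or the sex of the animals. Skin was sampled at 29 days alone, on replicates 1 and 2, so the skin results rest on 2 arrays against wild type skin RNA, and whether both arrays share that RNA is not stated.

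Keratins assemble as obligate pairs of an acidic (type I) and a basic (type II) protein into the intermediate filaments of epithelial cells, and each layer of the skin uses its own pair. Simple epithelia use Krt8, Krt18, Krt19, Krt7 and Krt20, the differentiating epidermis uses Krt1 and Krt10, and Krt6, Krt16 and Krt17 are found in the outer root sheath and companion layer of the hair follicle and are induced in epidermis by wounding and other stress. Hair shaft keratins and the keratin-associated proteins are made in the follicle during its growth phase, when the associated proteins cross-link the filaments of the shaft. The associated proteins fall into families rich in cysteine and families rich in glycine and tyrosine.

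By the gene table of assembly GRCm38.p6, 20 of the genes lie on chromosome 11, 14 on chromosome 15, 16 on chromosome 16, 2 on chromosome 7 and 1 on chromosome 10. RefSeq promoters of build GRCm38.p6 were at hand for 42 of the 53 genes. A TATA motif, TATAAA or TATATA on the gene's strand, which can overlap each other, started 40 to 21 bases before the start site in 21 of the 42, against 3.04% of 27025 promoters in the table. The palindrome TGANTCA, which reads alike on both strands, lay within 250 bases before the start in 7 of the 42, or 16.7%, against 6.87% of all promoters. The 150 bases before the start site are shown for Krt10 (chr11:99389365-99389514, minus strand), whose ratio in skin and in the other tissues lay on opposite sides of 0, and for 4 genes with some of the largest skin ratios, namely Krt23 (chr11:99493121-99493270, minus strand), Krtap3-3 (chr11:99550864-99551013, minus strand), Krtap16-3 (chr16:88962874-88963023, minus strand) and Krtap19-3 (chr16:88878039-88878188, minus strand). Capitals mark the TATA motifs, and Krt23 has neither motif in these bases.
Krt10: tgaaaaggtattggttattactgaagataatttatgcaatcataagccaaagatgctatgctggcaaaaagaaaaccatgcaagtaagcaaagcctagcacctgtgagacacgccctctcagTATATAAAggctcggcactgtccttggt
Krt23: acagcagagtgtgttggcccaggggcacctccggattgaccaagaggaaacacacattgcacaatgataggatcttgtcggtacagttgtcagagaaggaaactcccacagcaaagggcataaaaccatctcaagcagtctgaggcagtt
Krtap3-3: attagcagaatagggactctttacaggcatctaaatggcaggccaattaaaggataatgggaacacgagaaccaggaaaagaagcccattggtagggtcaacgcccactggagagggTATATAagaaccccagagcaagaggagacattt
Krtap16-3: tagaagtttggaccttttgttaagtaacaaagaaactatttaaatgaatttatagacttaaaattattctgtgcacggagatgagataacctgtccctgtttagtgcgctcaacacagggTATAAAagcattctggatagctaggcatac
Krtap19-3: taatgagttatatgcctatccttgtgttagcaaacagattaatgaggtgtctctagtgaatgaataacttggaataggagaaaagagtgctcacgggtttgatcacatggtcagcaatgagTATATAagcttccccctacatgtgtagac

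The values below give knockout relative to wild type as log2 ratios, centred on the median of each array and averaged over the probes of a gene, so that 0 is the middle of all features of the array and 1 is a doubling. Over all probes the SD of an array was 0.31 to 0.66 in the 29-day groups and 0.72 to 1.14 in the 21-day groups, and signal over background was not used here. Sirt6 itself was at -0.13 (SE 0.39) in skin and passed the test in 0 of the 6 groups (limma; lowest adjusted p = 0.103), so it does not check the genotype labels, and the place of its probe relative to the deletion is unknown. Eif2s3y, a Y-linked gene, stood at -0.10 on replicate 1 and 4.43 on replicate 2 of skin, and at -0.13 to 0.37 against 3.35 to 5.08 on the other 29-day arrays of these numbers. On the 21-day arrays it was below 0, with -2.87 and -2.98 in liver and -7.996 and -5.04 in spleen. The channels of replicate 2 at 29 days and of the 21-day arrays thus also differed in a Y-linked transcript, in opposite directions. No array had the dyes swapped, and any bias of a probe towards Cy5 or Cy3 is part of each ratio.

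Over the whole family, skin ratios lay above 0 more often than below. Of 53 genes, 34 were above 0 on both skin arrays, or 64.2%, against 28.2% of all features, and 4 were below 0 on both, or 7.55%, against 26.9%. The median of the 53 genes was 0.12 on replicate 1 and 0.26 on replicate 2, and that of all features was 0.00 and 0.01. Ribosomal protein and respiratory chain genes themselves lay above the array median in skin. Centred on their level, the family median was below 0 (-0.16). There 5 of 53 genes were above 0 on both arrays, against 2.9% of all features, and 23 were below. The share of all features below 0 on both is not given here, so the 23 shows nothing particular to the family. The direction of the family thus holds relative to the median of all features and not relative to those genes. With that centring the median of all features was -0.38. Centring moves all features of an array alike, so the gap of 0.22 between the family and all features was bound to stay.

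No member passed the test in skin. Limma called 0 of 53 at an adjusted p under 0.05, against 0.0389% of all features, and 7 had an unadjusted p under 0.05, all 7 with a ratio above 0, or 13.2%, against 3.27% of all features. A ratio above 0.58, a change of about 1.5-fold, on both arrays was found for 3 of 53 genes (Krt6a, Krt17 and Krtap3-3), against 0.86% of all features, and a ratio under -0.58 on both for 0, against 0.931%. A larger share of keratinocytes and more RNA per cell cannot be told apart in these bulk samples, nor can fewer cells and less RNA per cell.

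**Figure D1:**
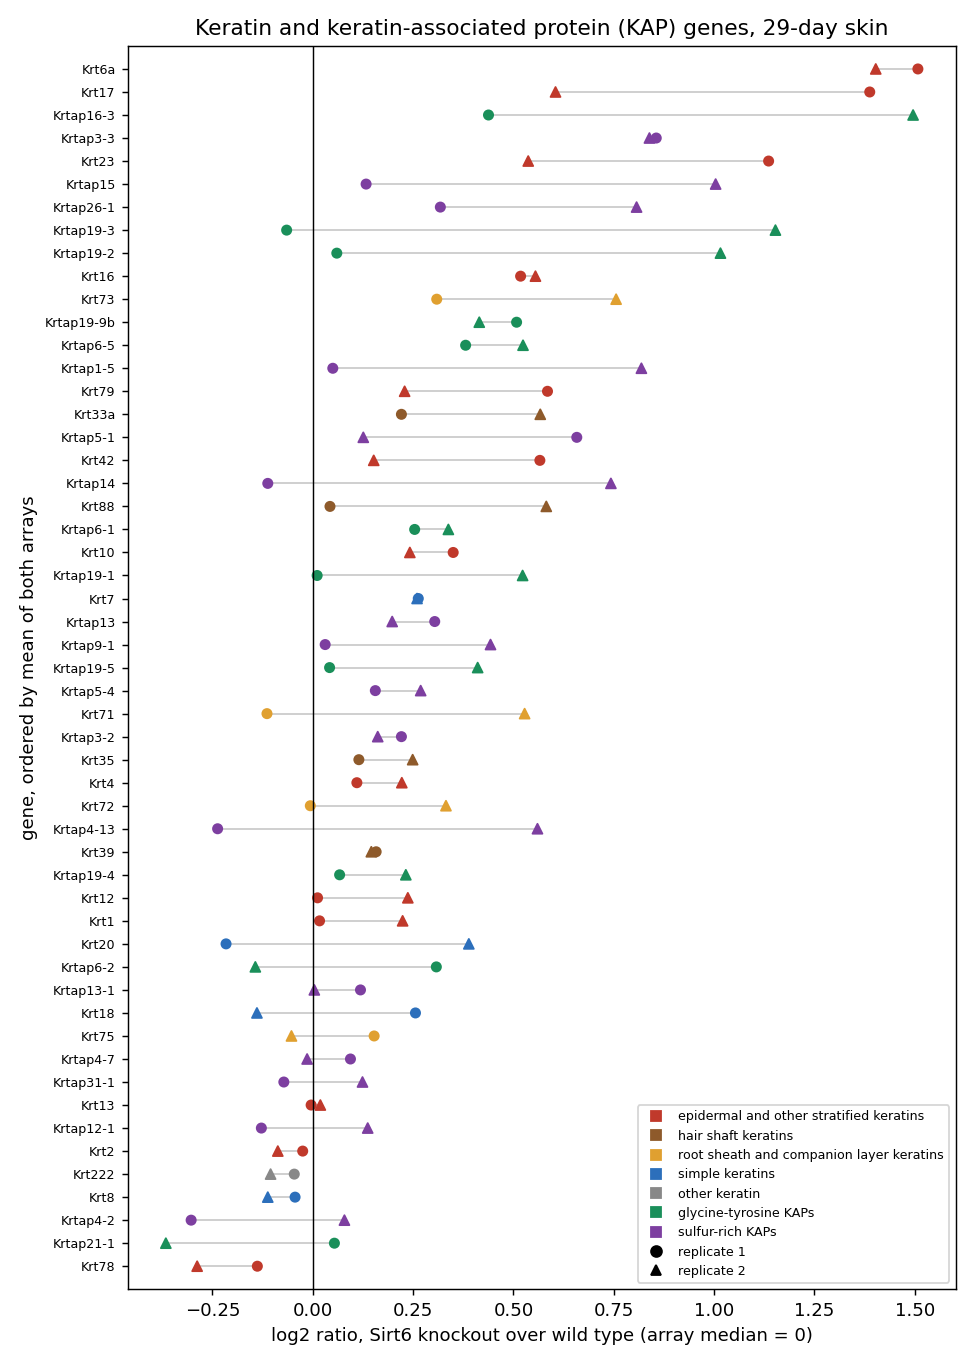
Log2 ratio of knockout over wild type (x axis) for the 53 genes (y axis, ordered by mean) in 29-day skin, with circles for replicate 1, triangles for replicate 2 and colours for the type of protein. Krt6a lies at 1.51 and 1.40, Krtap3-3 at 0.86 and 0.84, and Krt78, the lowest, at -0.14 and -0.29.

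Krt6a, a type II keratin of the companion layer and of stressed epidermis, had the highest mean of the family in skin. It was at 1.51 on replicate 1 and 1.40 on replicate 2, a mean of 1.46 (SE 0.20, n = 2) or 2.74-fold, which ranked 30 among 30810 features. All 3 of its probes showed it, at 1.43 and 1.41, 1.45 and 1.15, and 1.64 and 1.65 on replicates 1 and 2. The limma adjusted p was 0.0564, just over the threshold, and it was under 0.05 in 7 of 24 settings, with a range of 2.28e-05 to 1.00. Without replicate 6 or replicate 11 of 21-day spleen, the limma adjusted p for Krt6a was 0.0370 and 0.0369. Probes of Krt6a may also read its close relative Krt6b, for which no probe was named here.

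The partners of Krt6a were also above 0 on both arrays. Krt17, which pairs with Krt6 in the follicle and in wounded skin, was at 1.39 and 0.61 (mean 1.00, SE 0.23, limma adjusted p = 0.471, fitted without replicate 6 of 21-day spleen, where it has no value). Krt16, the partner of Krt6 in stressed epidermis, was at 0.52 and 0.56 (mean 0.54, SE 0.23, adjusted p = 1.00). The replicates of Krt16 lay close together, whereas Krt17 differed between them by 0.78. Krt23, a type I keratin, was at 1.14 and 0.54, with both of its probes above 0 on both arrays (mean 0.84, SE 0.55, adjusted p = 1.00). The fit uses 1 spread per gene for all groups, and for Krt23 the arrays of 21-day spleen lay at 2.84 and -0.15. Krt79, a keratin of the upper follicle canal, was at 0.59 and 0.23 and Krt42, another type I keratin, at 0.57 and 0.15. For both genes replicate 1 was the higher array, as for Krt17 and Krt23.

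Keratins of the spinous and granular layers lay nearer to 0. Krt10, the type I keratin of the differentiating epidermis, was at 0.35 and 0.24 (mean 0.30, SE 0.16, limma adjusted p = 1.00). Krt1, its type II partner, was at 0.02 and 0.22, and Krt2, which replaces Krt1 in the upper layers, was at -0.03 and -0.09. Krt78, another type II keratin of the suprabasal epidermis, had the lowest mean of all 53 genes, with -0.14 and -0.29. The Krt1 and Krt10 pair and Krt2 thus lay well under Krt6a on both arrays. Krt222, a keratin-like protein that was put in no type, was at -0.05 and -0.11. Among keratins of other stratified epithelia, Krt4 was at 0.11 and 0.22, Krt12, the keratin of cornea, at 0.01 and 0.24, and Krt13, the partner of Krt4 in mucosa, at 0.00 and 0.02, where its 2 probes disagreed in sign. Of the 13 epidermal and other stratified keratins measured, 10 lay above 0 on both skin arrays and 2 below, with a median of 0.35 on replicate 1 and 0.23 on replicate 2. No probe was named for Krt5, Krt14 or Krt15, the keratins of the basal layer, and these were not analysed here.

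**Figure D2:**
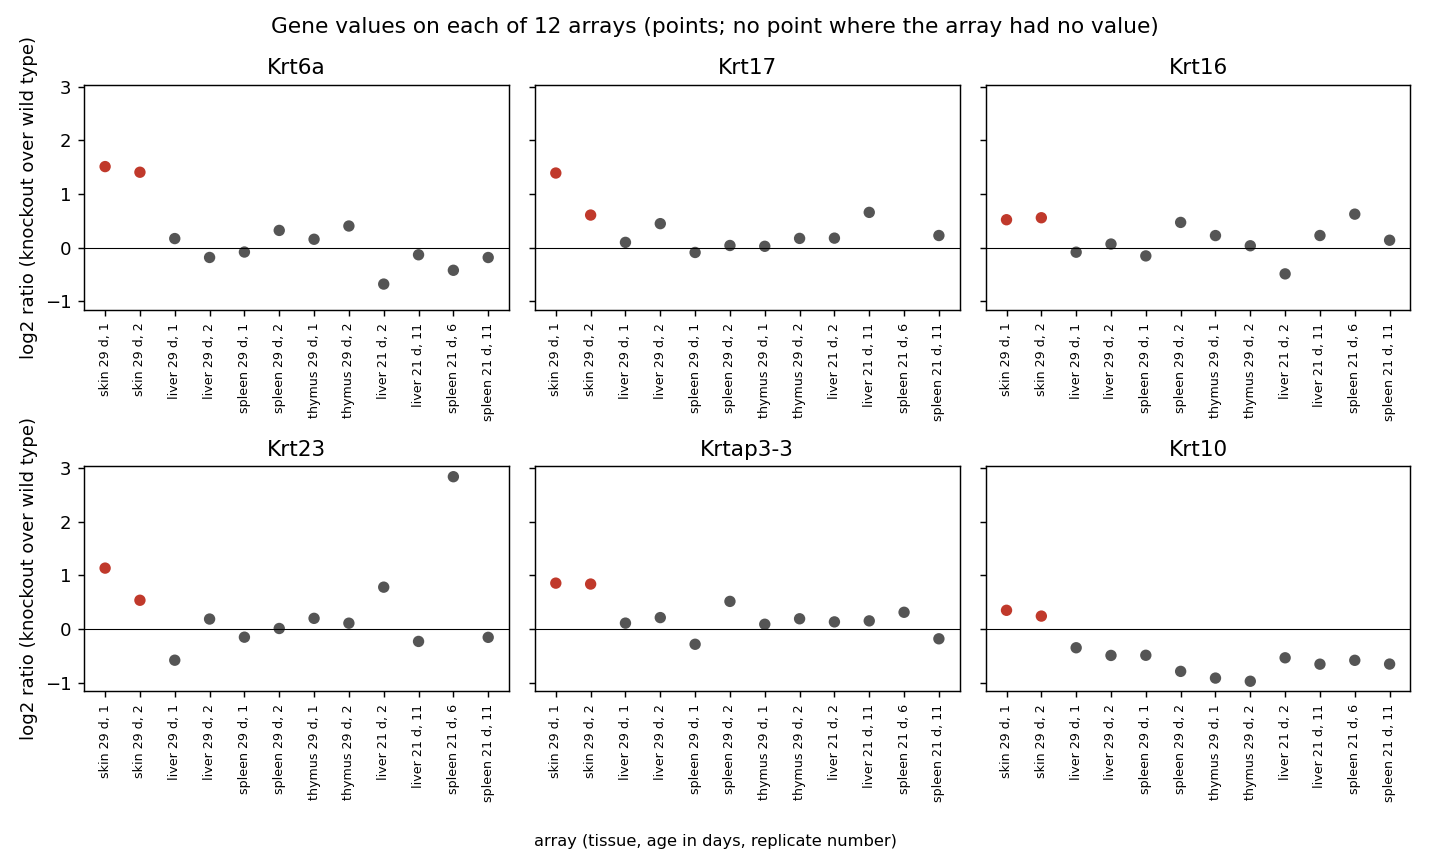
Log2 ratio of knockout over wild type (y axis) of 6 genes on each array (x axis), with skin in red and the other tissues in grey. Krt6a lies above 1.40 on both skin arrays and at 0.40 or lower on all other arrays, and Krt10 lies above 0 on both skin arrays and below 0 on all other arrays.

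Keratins of the hair shaft and its sheaths showed smaller ratios than Krt6a, and these were mostly higher on replicate 2. Krt33a, a type I keratin of the hair cortex, was at 0.22 and 0.57 and Krt35, an early keratin of the growing shaft, at 0.12 and 0.25. Krt39, another type I hair keratin, was at 0.16 and 0.15, and Krt88, a type II keratin listed with them, at 0.04 and 0.58. All 4 genes listed as shaft keratins were thus above 0 on both arrays, but none reached 0.58 on replicate 1. Krt73, a keratin of the inner root sheath, was at 0.31 and 0.76 (mean 0.53, SE 0.23, limma adjusted p = 1.00, also fitted without that spleen array). Krt71 and Krt72, further inner root sheath keratins, were at -0.11 and 0.53 and at -0.01 and 0.33, and Krt75, of the companion layer, was at 0.15 and -0.05 with 2 probes of opposite sign. These 3 genes had opposite signs on the arrays, so 1 of the 4 root sheath and companion layer keratins, Krt73, was above 0 on both. The median of these 8 hair keratins was 0.13 on replicate 1 and 0.43 on replicate 2. The list held 17 shaft keratins and 9 of the sheaths, of which 4 and 4 had a named probe.

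The keratin-associated proteins split by array. On replicate 1, 2 of the 27 genes exceeded 0.58 (Krtap3-3 and Krtap5-1), and on replicate 2, 8 did (Krtap16-3, Krtap19-3, Krtap19-2, Krtap15, Krtap3-3, Krtap1-5, Krtap26-1 and Krtap14). Of all 30818 features, 1238 exceeded it on replicate 1 and 640 on replicate 2, so the order of the arrays was opposite over all features. Krtap3-3, of a family of high-sulfur proteins, was the gene on which the arrays came closest among the large ratios, with 0.86 and 0.84 (mean 0.85, SE 0.21, limma adjusted p = 0.502). Its neighbour in name Krtap3-2 was at 0.22 and 0.16. None of the 27 genes lay below 0 on both arrays, against 26.9% of all features, and 18 lay above 0 on both, or 66.7%, against 28.2%. In 29-day thymus 19 of the 27 lay above 0 on both arrays, or 70.4%, against 38.5% of all features. There 6 lay below, or 22.2%, against 33.7%.

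Most of the genes that were high on replicate 2 lie on chromosome 16, as do most of the associated protein genes (16 of 27). Of the 16 associated protein genes there, 6 exceeded 0.58 on replicate 2 and 0 on replicate 1, with medians of 0.47 and 0.13. Krtap19-3 had the widest gap, with -0.07 on replicate 1 and 1.15 on replicate 2, and Krtap19-2 was at 0.06 and 1.02. Both belong to the families rich in glycine and tyrosine. Krtap15 was at 0.13 and 1.00, Krtap14 at -0.11 and 0.74 and Krtap26-1 at 0.32 and 0.81, all 3 counted with the sulfur-rich families. Other genes there lay near 0 or had opposite signs: Krtap13-1 was at 0.12 and 0.00, Krtap6-2 at 0.31 and -0.14 and Krtap21-1 at 0.05 and -0.37. A further set was above 0 on both arrays without a wide gap, as Krtap19-9b at 0.51 and 0.42, Krtap6-5 at 0.38 and 0.52, Krtap6-1 at 0.25 and 0.34, Krtap13 at 0.30 and 0.20 and Krtap19-4 at 0.07 and 0.23. Many of these genes are close relatives, so a probe can read more than 1 of them. On chromosome 11 the 8 associated protein genes had medians of 0.04 and 0.30, and 2 of them exceeded 0.58 on replicate 2. Krtap1-5, at 0.05 and 0.82, was also higher on replicate 2. Krtap9-1 was at 0.03 and 0.44, and Krtap4-13 at -0.24 and 0.56. Krtap4-2, at -0.30 and 0.08, had the lowest mean of the associated proteins on this chromosome. On chromosome 7 the order of the arrays was mixed, with Krtap5-1 at 0.66 and 0.13 and Krtap5-4 at 0.16 and 0.27. The Y-linked transcript given above differed between the same arrays, and its part in these gaps was not tested.

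Krtap16-3, rich in glycine and tyrosine, had the highest mean of the associated proteins in skin, with 0.44 and 1.496 (mean 0.97, SE 0.38, limma adjusted p = 1.00). Outside skin its values were as large, with 0.97 and 1.08 in 29-day thymus, 0.61 and -1.08 in 29-day spleen, and 0.19 and -0.47 in 29-day liver. At 21 days it stood at -0.83 and -1.28 in liver and -0.78 and -0.41 in spleen. The difference between skin and thymus was -0.06 (SE 0.54, limma adjusted p = 1.00). Its 2 probes disagreed on this difference, which was 0.43 (SE 0.48) for one and -0.54 (SE 0.77) for the other.

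**Figure D3:**
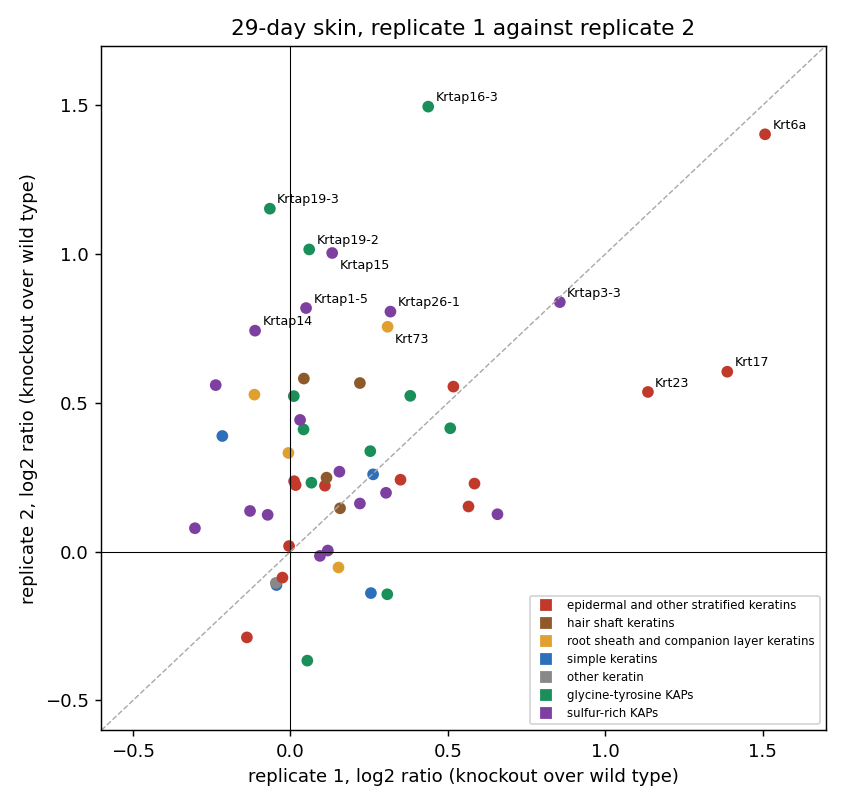
Log2 ratio of the 53 genes on replicate 1 (x axis) against replicate 2 (y axis) of 29-day skin, with colours for the type of protein and a dashed line where both arrays give the same value. Krt6a and Krtap3-3 lie near the dashed line, Krt17 and Krt23 below it, and Krtap16-3, Krtap19-3, Krtap19-2 and Krtap15 above it.

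Simple keratins showed no common direction in skin. Krt7, found in glands and ducts, was at 0.26 on both arrays, Krt8 at -0.04 and -0.11, Krt18, its partner, at 0.26 and -0.14, and Krt20, of gut and Merkel cells, at -0.22 and 0.39. Their median was 0.11 on replicate 1 and 0.07 on replicate 2. In 29-day liver, where hepatocytes hold Krt8 and Krt18 alone, both genes were above 0 on replicate 1 and below 0 on replicate 2: Krt8 was at 0.28 and -0.29 and Krt18 at 0.54 and -0.42. In 29-day thymus, where some epithelial cells use the same pair, Krt8 was at -0.14 and 0.11 and Krt18 at -0.39 and 0.06. Thymic epithelial markers were as spread there, with medians of -0.40 and 0.01 over 9 genes. In 21-day liver Krt8 was at -0.15 and -0.03, and Krt18 had 1 value, 0.35. Krt20 at 29 days was at 0.46 and 0.17 in liver, and at -0.04 and -0.45 in thymus. Krt7 at 29 days was at 0.04 and 0.06 in liver, and at -0.27 and -0.19 in thymus. In 21-day liver Krt20 was at -0.38 and -0.95 and Krt7 at 0.02 and -0.47. In 29-day spleen Krt8 was at 0.26 and 0.19, Krt18 at 0.01 and -0.05, Krt20 at 0.02 and -0.33 and Krt7 at -0.04 and -0.30. Limma called no simple keratin in any of these tissues. No probe was named for Krt19.

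Krt10 lay on opposite sides of 0 in skin and in the other tissues, a difference that did not pass the test. It stood at -0.35 and -0.49 in 29-day liver, -0.49 and -0.79 in 29-day spleen and -0.91 and -0.97 in 29-day thymus. At 21 days it was at -0.54 and -0.65 in liver and -0.58 and -0.65 in spleen. It was thus below 0 on all 10 arrays outside skin and above 0 on both skin arrays. Its mean was -0.94 (SE 0.16, limma adjusted p = 0.243) in thymus, -0.64 (adjusted p = 1.00) in 29-day spleen, -0.62 (adjusted p = 0.0573) in 21-day spleen and -0.59 (adjusted p = 0.081) in 21-day liver. Skin minus the mean of the other 29-day tissues was 0.96 (SE 0.18, adjusted p = 0.439). Skin minus thymus was 1.24 (SE 0.22, adjusted p = 0.392). Under centring on ribosomal protein and respiratory chain genes the mean in skin turned to -0.09, while the difference from the other tissues stayed above 0 at each setting run (0.43 to 1.47).

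The test of skin against the mean of the other 3 tissues of the same age called 0 of 53 members, against 0.0% of all features. At an unadjusted p under 0.05 were 4 members, or 7.55%, against 2.45% of all features. All 4 had higher ratios in skin. Krt6a had a difference of 1.33 (SE 0.23, limma adjusted p = 0.354), Krt17 one of 0.88 (SE 0.26, adjusted p = 1.00) and Krtap3-3 one of 0.71 (SE 0.24, adjusted p = 1.00), and Krt10 is given above. A dye bias of a probe that is the same on all arrays cancels in these differences. Outside skin Krt6a lay between -0.19 and 0.40 on the other 29-day arrays and Krt17 between -0.09 and 0.45. The pairwise tests called 0 of 53 members against liver (0.00325% of all features), 0 against spleen (0.0%) and 0 against thymus (0.0065%). At an unadjusted p under 0.05 were 3, 4 and 4, or 5.66%, 7.55% and 7.55%, against 2.11%, 2.23% and 2.52% of all features.

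In liver, spleen and thymus at 29 days limma called 0 members, against 0.104%, 0.0% and 0.013% of all features. At an unadjusted p under 0.05 were 1, 1 and 2 members, or 1.89%, 1.89% and 3.77%, against 2.16%, 3.3% and 5.21% of all features. The members were Krt10 in each tissue and Krtap16-3 in thymus. Past 0.58 on both arrays were 0 of 53 above and 0 below in liver (0.298% and 0.762% of all features), 0 and 0 in spleen (0.201% and 0.643%), and in thymus 1 above (Krtap16-3; 0.717%) and 1 below (Krt10; 0.766%). The next highest means with 1 sign on both arrays were those of Krt35 in liver (0.89 and 0.10), Krtap4-13 and Krt73 in spleen (0.61 and 0.38, 0.38 and 0.49) and Krtap4-13 and Krtap19-1 in thymus (0.45 and 0.40, 0.64 and 0.15). After Krt10 the lowest were Krtap19-3 in liver (-0.13 on both), Krtap6-5 in spleen (-0.28 and -0.33) and Krt1 in thymus (-0.47 and -0.05). None of these genes passed the test. Members below 0 on both arrays were 4 of 53 in liver, 4 in spleen and 11 in thymus, against 22.9%, 17.7% and 33.7% of all features. The share of members above 0 on both arrays was 32.1% in liver, 32.1% in spleen and 62.3% in thymus, against 23.9%, 19.1% and 38.5% of all features. Receptor genes for smell, pheromones and taste, little expressed outside sensory organs, had 27.1%, 35.2% and 62.8% there, close to the members in thymus, and 27.5% in skin, where the members had 64.2%. On replicate 2 of spleen the medians of the members and of these receptor genes were 0.26 and 0.30. The part of faint signal in these medians was not tested.

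**Figure D4:**
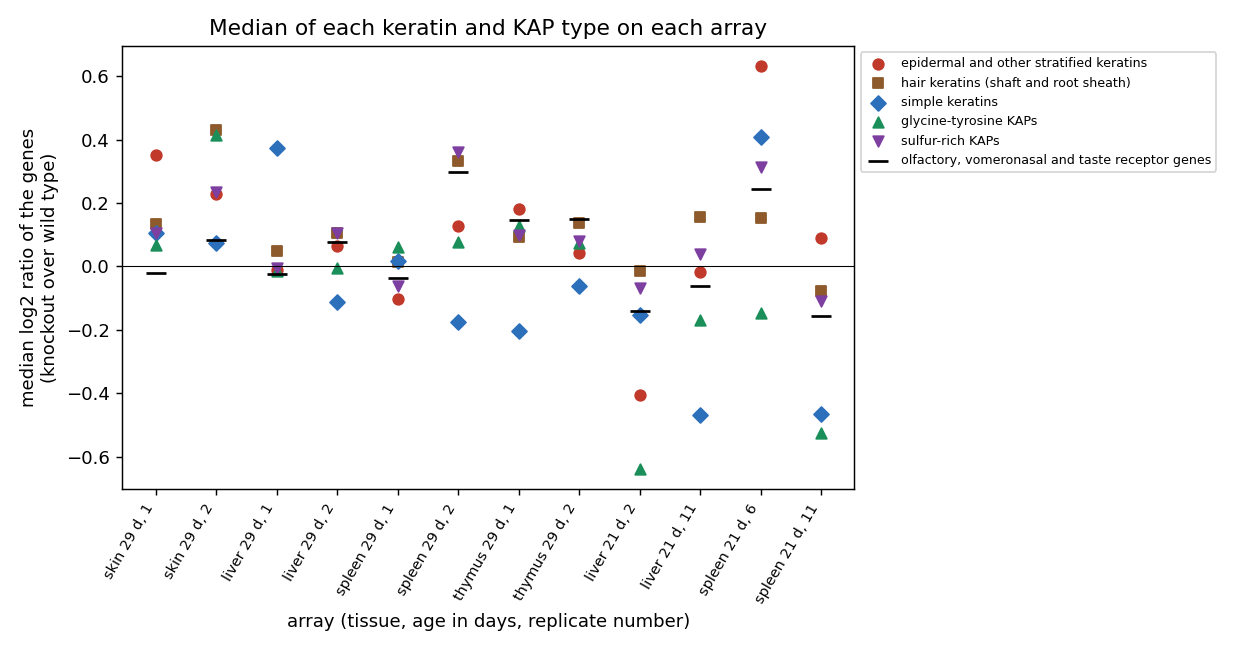
Median log2 ratio of each type of keratin and keratin-associated protein (KAP) gene (y axis) on each array (x axis), with black bars for olfactory, vomeronasal and taste receptor genes. In skin the epidermal keratins have medians of 0.35 and 0.23 and the receptor genes -0.02 and 0.08, and the medians of the 21-day arrays scatter more widely.

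At 21 days the ratios were more widely spread within an array, and 50 members in liver and 44 in spleen had both values. Limma called 0 of 50 in liver, against 2.54% of all features, and 0 of 44 in spleen, against 4.13%, with 10 and 12 members at an unadjusted p under 0.05, near the share of all features, which was 20% in liver and 27.3% in spleen. Krtap4-13, of an ultra-high-sulfur family, came nearest in liver, with -0.82 and -1.26 (mean -1.04, SE 0.23, limma adjusted p = 0.0528), and Krt88, fitted without replicate 6 of 21-day spleen for want of a value, was at -2.27 and -0.66 (adjusted p = 0.0647). Members above 0 on both arrays were 7 of 50 in liver, against 31.9% of all features, and 15 of 44 in spleen, against 25.3%, and those below 0 were 17 and 11, against 33.6% and 29.1%. Above 0.58 on both were 0 in liver (2.86% of all features) and 1 in spleen (Krt78; 2.34%), and under -0.58 were 4 in liver (Krt13, Krt88, Krtap16-3 and Krtap4-13; 5.78%) and 1 in spleen (Krt10; 6.71%). Krt78, the lowest gene in skin, was at 1.40 and 0.74 in 21-day spleen (adjusted p = 0.104), and Krtap19-1 at -0.91 and -0.50 (adjusted p = 0.0872). In 29-day liver Krtap4-13 was at 0.52 and -0.11 and Krt88 at 0.18 and 0.14. The test of 29 against 21 days called 0 of 50 members in liver (0.0138% of all features) and 0 of 44 in spleen (0.0866%). At an unadjusted p under 0.05 were 4 and 1, or 8.0% and 2.27%, against 8.22% and 11.1% of all features. Since every 21-day array belongs to the other set of arrays, age and set are confounded and cannot be told apart, nor can the Y-linked difference of the 21-day arrays given above.

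Other genes of the cornified layer mostly had ratios above 0 in skin. Of 24 measured genes of the cornified envelope list, 0 were called by limma, against 0.0389% of all features. On both arrays 18 lay above 0 and 2 below, against 28.2% and 26.9% of all features, with medians of 0.88 and 0.36. Sprr1b (0.01 and -0.02), Sprr3 (-0.16 and 0.06), Lce3b (0.18 and -0.18) and Lce3c (0.51 and -0.16) had opposite signs on the arrays. Sprr2d, a small proline-rich envelope protein, was at 1.55 and 1.63 (mean 1.59, SE 0.28, adjusted p = 0.153), Lce1b, a late envelope protein, at 1.53 and 1.01, and Lor, the envelope protein loricrin, at 1.15 and 0.77. Tgm5, a transglutaminase of the envelope, and Trp63 were below 0 on both arrays, with means of -0.50 and -0.21. The list holds Trp63 although it is the regulator of the basal keratinocyte. Desmosome and hemidesmosome genes had medians of 0.24 and 0.01 over 15 genes. Regulators of the hair follicle had medians of 0.04 and 0.03 over 25 genes with 0 called; among them Hoxc13, an activator of hair keratin genes, was at 0.05 and 0.20, Foxn1, a further regulator of the shaft, at -0.01 and 0.22, and S100a3, a protein of the hair cuticle, at 0.55 and 0.92 (mean 0.73, SE 0.18, adjusted p = 0.502). Beside these, the hair keratins had medians of 0.13 and 0.43 and the associated proteins 0.09 and 0.41. The gap to the regulators was thus small on replicate 1 and wider on replicate 2. Proliferation genes had medians of -0.15 and -0.13 over 13 genes, with 1 above 0 on both arrays and 9 below.

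Markers of other cells of skin were read in the same way. Adipocyte genes had medians of -0.73 and -0.53 over 9 measured of 10, with 7 below 0 on both arrays and values from -2.14 to 0.41, and dermal fibroblast genes had medians of -0.54 and -0.06 over 8, from -1.30 to 0.50. Skeletal muscle genes had medians of 0.22 and 0.47 over 9 of 12, from -0.99 to 1.09. Sebocyte genes had -0.09 and -0.32 over 5 of 7, melanocyte genes -0.01 and 0.12 over 6 of 7 and immune genes 0.11 and -0.10 over 8 of 11. Limma called none of these genes at an adjusted p under 0.05. The part of tissue make-up in the keratin ratios was not tested.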

How the data were processed

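RNA of knockout and wild type tissue was compared on 12 two-colour arrays. The authors deposited log2 ratios of Cy5 (knockout) over Cy3 (wild type) for 38784 probes. Base 2 is inferred from the values (-8.08 to 9.75), dyes and channels are per the labels, and how the ratios were normalized is not stated there. Per the labels' protocols, knockout RNA was extracted with TRIzol. GEO's platform annotation gave 22204 probes 1 gene symbol and 16580 none, and all 53 member symbols were found in the RefSeq gene table.

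Each array was centred on its median and probes of a gene were averaged. Limma 3.58.1 (R 4.3.3) was fitted to all 12 arrays with a mean for each of the 6 groups, and tested group means against 0 and the differences between skin and the other 29-day tissues and between ages, two-sided, at 0.05 after Benjamini-Hochberg adjustment over the whole table. Testing needed values on both arrays of the group and on both arrays of 2 or more others. The labels do not say whether the arrays of a group hold separate animals. At 29 days the arrays of each group differed in Eif2s3y, so they are not repeats of the same RNAs. The spread behind each SE and p-value is that between arrays of a group, pooled over the 6 groups for each feature and moderated by limma. The 21-day liver array with no number in its labels was given the number 2 as a name. The number of arrays limits the precision. The steps were tested on simulated data that gave a feature the same spread on all arrays. The unequal spread of the real arrays was not part of that test.

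The members and gene lists were chosen with earlier results of these data known. Keratins were typed by a fixed list and associated proteins by family number, with families 6, 16, 19 and 21 taken as rich in glycine and tyrosine from background knowledge; the protein composition was not computed. Values on both arrays were given for the genes of highest and lowest mean in skin, for classical keratin pairs and for simple keratins. The replicate numbers of 29-day arrays were checked as pairs by correlating the deviations of arrays of the same number between tissues. The correlation was 0.42 for liver and spleen, 0.22 for skin and spleen and -0.21 for spleen and thymus. In the other tissue pairs it was -0.01 to 0.03. With no common sign, the numbers were not taken as pairs, although Eif2s3y, a Y-linked gene, separated them in all 4 tissues. Whether a number marks an animal is not given. Alternatives were other centring, scaling, normalization, filters, probe summaries, subsets of arrays, a replicate block, robust or weighted fits, a looser threshold of 0.1, and dropping every array in turn.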

Additional observations from a re-analysis of the deposited data

How the results depend on the processing

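Members called in skin numbered 0, but 3 with arrays scaled to 1 median absolute deviation, 3 with quantile normalization, 4 with array quality weights, 1 with arrays of the same age, 1 at an adjusted p of 0.1 and 7 with the skin arrays alone, a fit that called 759 features higher and 662 lower in all. Of 30810 features, scaling called 188 higher and 239 lower, quantile normalization 149 and 352, and weights 254 and 315. Arrays of the same age called 17 and 26 of 30792 features, and an adjusted p of 0.1 gave 15 and 12 of 30810. Leaving out 1 array gave 0 to 1 in skin (1, Krt6a, without either 21-day spleen array, where 14 features were higher and 21 lower). In thymus scaling and weights gave 1 each (Krt10), where 5 features were higher and 23 lower, and 57 and 128, of 30806. Skin minus the mean of the other tissues gave 2, 1 and 2 with scaling, quantile normalization and weights, minus liver 1, 1 and 1, minus spleen 1 and 1 with the first pair, and minus thymus 2, 1 and 2. In the same order, skin minus the mean called 50 features higher and 55 lower, 53 and 118, and 21 and 20 of 30641. Against liver they were 121 and 62, 103 and 83, and 105 and 61 of 30756. Against spleen they were 12 and 11, and 21 and 30 of 30735. Against thymus they were 37 and 31, 34 and 60, and 71 and 73 of 30750. In 21-day liver no centring gave 3 and an adjusted p of 0.1 gave 3, and in 21-day spleen the latter gave 2. With each probe on its own these groups gave 1 and 2. Over all features, no centring called 74 higher and 1203 lower of 29093 in liver. The threshold of 0.1 gave 500 and 1300 there, and 1131 and 1893 of 23146 in spleen. Of the probes, 158 and 747 of 35792 were called in liver, and 295 and 826 of 27346 in spleen. Leaving out 1 array gave 0 to 4 in 21-day liver and 0 to 8 in 21-day spleen (8 without replicate 11), and 0 to 2 and 0 to 3 for the age differences. Without replicate 11, the fit called 3045 features higher and 3377 lower of 23953 in 21-day spleen. The age difference in spleen then had 1315 and 1278 of 23890. In 21-day liver these fits called 38 to 511 features higher and 250 to 1431 lower. With the replicate block 0 members were called in all tests it allowed, and Krt6a in skin kept 1.46 (adjusted p = 0.0623). The cause of these changes was not tested.

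Medians in skin moved most with centring on 134 ribosomal protein and respiratory chain genes, which lowered the skin arrays by 0.51 and 0.26: to -0.16 over all members, -0.09 for epidermal keratins, -0.19 for hair keratins, -0.31 for simple keratins, -0.09 for glycine-tyrosine and -0.16 for sulfur-rich associated proteins, and Krt10 reversed to -0.09. That choice also left 5 genes above 0 on both arrays, against 2.9% of all features, and 23 below (counts added after seeing the data). The share of all features below is not given here, and their median was -0.38. Scaling gave medians of 0.35, 0.45, 0.11 and 0.34 for all members, epidermal, simple and sulfur-rich genes, quantile normalization 0.35, 0.41 and 0.34 for all, epidermal and sulfur-rich genes, and features complete on all arrays 0.17 for epidermal keratins. Either skin array alone gave 0.12 to 0.26 for all members, 0.23 to 0.35 for epidermal, 0.13 to 0.43 for hair, 0.074 to 0.11 for simple, 0.07 to 0.42 for glycine-tyrosine and 0.11 to 0.23 for sulfur-rich genes. At a step of 0.3 in place of 0.58, 10 members were above it on both arrays, and at 1.0, 1 was. Of 30818 features, 1195 and 46 were.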

Other observations

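Few features shared the signs of Krt10. Of 21397 features with a value on all 12 arrays, 26 were above 0 on both skin arrays and below 0 on the 10 others, 16 of them named genes, and Krt10 was 1 of these. Of these 21397 features, 1 was above 0 on both skin arrays and below -0.3 on all 10 others, and it was Krt10. The pattern and the value of 0.3 were chosen after the data were seen, those of Krt10 included, so its match is no test. The 2 probes of Krt10 gave means of -0.93 and -0.40 over the other 29-day arrays and 0.33 and 0.26 in skin. These means had the same signs with different sizes. The pattern holds for the average of the probes, as the weaker probe lay at -0.20 and -0.11 in 29-day liver and at 0.005 and -0.22 in 21-day spleen.

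Single arrays at 21 days gave the most extreme values of the family. Krtap14 was at 4.52 on the liver array with no number in its labels and -1.18 on replicate 11 of liver, Krtap13 at 0.18 and -3.06 on the same arrays, and Krt23 at 2.84 on replicate 6 and -0.15 on replicate 11 of spleen.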
